A study of Mus musculus with 6 samples.

Results

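The small leucine-rich proteoglycans are secreted matrix proteins built from a short run of leucine-rich repeats, most of which carry chains of chondroitin, dermatan or keratan sulphate. They bind collagen fibrils and set how the fibrils form and pack, and several also hold growth factors or bind cell surface receptors. Cysteine spacing and gene structure divide them into classes, of which class I holds Dcn, Bgn and Aspn, class II holds Lum, Fmod, Omd and Prelp, and class III holds Epyc and Ogn. In the newborn inner ear the sensory epithelia lie on a basement membrane over a collagen-rich mesenchyme, and the cochlear epithelium is covered by a collagen-containing tectorial membrane.

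These 9 genes were taken by symbol from the mouse gene set, and all 9 were matched to a row of the 39179 genes in the count files. Each was among the 14723 genes with at least 1 CPM (counts of a gene scaled to the total gene counts of its library) in 3 or more libraries, so each was tested. Omd was at 1 CPM or more in 5 of the 6 libraries and the other members in all 6.

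The data are RNA-seq of the sensory epithelium of the cochlea, the hearing organ, and of the vestibule, the balance organ, of wild-type (WT in the labels) C57Bl/6J mice at postnatal day 0, with 3 libraries of each tissue and male and female animals pooled. Both groups share this genotype, strain and age, and the labels give no treatment for either, so tissue is the contrast. The labels and methods describe pooled cochlear and vestibular epithelia of 20 inner ears from 10 mice, and 450 ng of RNA for each library. They do not say that the libraries of a tissue came from separate pools, and both tissues may come from the same mice. The p-values therefore measure only the spread between these libraries, which may be technical.

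The libraries held between 24464483 and 33664793 counts on genes, so that 1 CPM stands for 24.5 to 33.7 counts. Markers of both labelled tissues were present in every library. The summed level of 10 markers of the cochlear floor epithelium was 10144 to 12956 CPM in the cochlea and 1498 to 1599 CPM in the vestibule, and that of 10 hair cell markers was 661 to 833 CPM and 1043 to 1348 CPM. Cochlea replicate 3 stood apart in 7 skeletal muscle markers, which summed to 304 CPM there and to 14.5 to 33.8 CPM in the other 5 libraries. That library was also the lowest of its tissue in neuronal markers (160 against 517 and 467 CPM) and melanocyte markers (31.0 against 58.0 and 60.0 CPM). Cochlea replicate 1 was the highest of its tissue in red blood cell markers (736 against 340 and 292 CPM). Vestibule replicate 1 was the highest of its tissue in neuronal markers (327 against 105 and 129 CPM). All tests were also run without cochlea replicate 3. Fold changes are given as log2 of vestibule over cochlea, and negative values mark genes with the higher level in the cochlea. They come from edgeR's quasi-likelihood test with TMM scaling, and p-values are adjusted by the Benjamini-Hochberg method over all genes tested, with 0.05 as the threshold.

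Of the 9 proteoglycan genes, 2 rose in the cochlea (Epyc and Lum) and 6 rose in the vestibule (Omd, Fmod, Aspn, Ogn, Prelp and Bgn), while Dcn did not pass the test. Over all genes tested, 11.6% were called higher in the cochlea and 15.8% higher in the vestibule, 27.4% in all. The median log2 fold change of the 9 genes was 0.63, against 0.0048 for all genes tested. The largest differences had opposite signs, with a log2 fold change of -6.36 for Epyc and of 3.21 for Omd. In CPM all 3 vestibular libraries lay above all 3 cochlear ones for 7 of the genes (27.5% of all genes tested), and the reverse held for the other 2 (14.3%), so that no member overlapped between tissues (41.8% of all genes tested did not). A log2 difference of at least 1 was reached by 5 of the 9 genes, and by 16.6% of all genes tested. In bulk RNA, fewer cells of a type and less RNA per cell cannot be told apart, and this holds for each difference reported here.

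**Figure D1:**
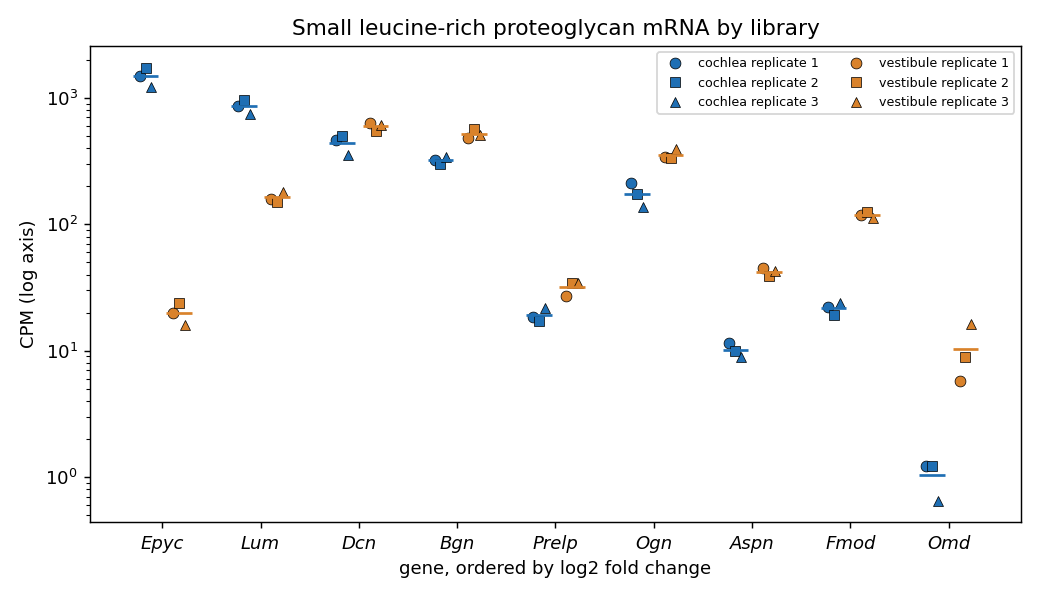
CPM on a log axis of the 9 proteoglycan genes in each of the 6 libraries, ordered by log2 fold change, with the mean of each tissue as a line. Epyc and Lum are higher in all 3 cochlear libraries, and the other 7 genes are higher in all 3 vestibular libraries, by a narrow margin for Dcn. CPM is shown without TMM scaling.

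The members lie in 3 gene clusters and at a single locus, and the sequences upstream of a few of them are shown here: that of Epyc, which had the largest difference of the 9 genes, and those of 3 neighbours that were all higher in the vestibule. Positions are on GRCm38, those of the genes from GENCODE vM21. On chromosome 10, on the forward strand, lie Dcn (97479609 to 97518143), Lum (97565128 to 97572703), Kera (97606879 to 97613692) and Epyc (97644068 to 97682454). On chromosome 13, also on the forward strand, lie Ecm2 (49504810 to 49532789), Aspn (49544443 to 49567565), Omd (49582462 to 49592822) and Ogn (49608046 to 49624501). On chromosome 1 lie Optc (133897199 to 133907999, reverse strand), Prelp (133910304 to 133921414, reverse strand) and Fmod (134037254 to 134048277, forward strand), and Bgn is on chromosome X (73483602 to 73495933, forward strand).

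RefSeq start sites on GRCm38.p6 were found for 7 of the 9 members. The 250 bases before the start are given 5′ to 3′ for the first of 2 starts of Epyc, the most cochlear member of the chromosome 10 cluster (chr10:97643818-97644067, forward strand), and for the 3 members of the chromosome 13 cluster that rose together in the vestibule, Aspn (chr13:49544193-49544442), Omd (chr13:49582212-49582461) and Ogn (chr13:49607765-49608014), all on the forward strand. Capitals mark TATAAA and ATTGTT on either strand, the core letters of a TATA box and of a SOX-type site.
Epyc: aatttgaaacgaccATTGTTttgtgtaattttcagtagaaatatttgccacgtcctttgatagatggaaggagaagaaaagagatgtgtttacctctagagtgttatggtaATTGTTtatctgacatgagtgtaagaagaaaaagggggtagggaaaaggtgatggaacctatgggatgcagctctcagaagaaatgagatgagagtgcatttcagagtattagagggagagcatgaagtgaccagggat
Aspn: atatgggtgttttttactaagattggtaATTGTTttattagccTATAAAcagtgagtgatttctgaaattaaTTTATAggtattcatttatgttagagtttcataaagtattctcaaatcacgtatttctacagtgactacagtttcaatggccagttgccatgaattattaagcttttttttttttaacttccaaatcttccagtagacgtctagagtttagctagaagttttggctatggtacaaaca
Omd: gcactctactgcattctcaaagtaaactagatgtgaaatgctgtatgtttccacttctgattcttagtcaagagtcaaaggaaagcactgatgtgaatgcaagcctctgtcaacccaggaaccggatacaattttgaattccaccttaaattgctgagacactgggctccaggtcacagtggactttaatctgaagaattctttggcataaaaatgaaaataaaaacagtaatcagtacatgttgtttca
Ogn: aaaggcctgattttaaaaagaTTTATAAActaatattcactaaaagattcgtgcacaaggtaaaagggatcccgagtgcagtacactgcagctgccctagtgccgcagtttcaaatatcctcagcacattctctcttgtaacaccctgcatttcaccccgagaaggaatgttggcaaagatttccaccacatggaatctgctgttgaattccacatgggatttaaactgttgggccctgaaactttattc

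ATTGTT occurred at 2 places in the Epyc sequence, at -236 to -231 and at -139 to -134 relative to the start, and at 1 place in that of Aspn. TATAAA occurred at 2 places each in the sequences of Aspn and Ogn, and the matches in Ogn overlap. The sequence of Omd held neither. Of 32851 such windows upstream of RefSeq start sites, 12.4% held TATAAA and 9.42% held ATTGTT. The E-box CANNTG, held by 66.2%, was also searched and is not in capitals. It had 3 matches in the sequence of Ogn, 1 in that of Aspn and no match in the other 2 shown. Among the windows not shown, the second start of Epyc held 3 matches of ATTGTT and 2 of CANNTG. That of Prelp held 1 of ATTGTT, and those of Bgn and Fmod held 1 of CANNTG each. All 3 words were searched after the sequences had been seen, and a match of letters is a description, not a site.

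Epyc, which encodes epiphycan, a dermatan sulphate proteoglycan first known from growth plate cartilage, was the most cochlear of the members. The cochlear libraries held 36712, 50054 and 35930 counts of Epyc and the vestibular libraries 663, 616 and 404. In CPM the cochlear libraries stood at 1501, 1738 and 1229 and the vestibular ones at 19.7, 24.0 and 15.9. The lowest cochlear library was thus 51.3 times the highest vestibular one. The log2 fold change was -6.36 (standard error 0.25, adjusted p = 3.37e-06), an 82.1-fold difference that ranked 25 by size among all genes tested. Means were 1489 ± 254 CPM in the cochlea and 19.8 ± 4.07 CPM in the vestibule (SD, n = 3 each). Over all 17 alternative settings, the run without cochlea replicate 3 included, the log2 fold change stayed between -6.50 and -6.20.

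Lum, which encodes lumican, a keratan sulphate proteoglycan that keeps collagen fibrils thin and evenly spaced in the cornea, also rose in the cochlea. It had 857, 968 and 747 CPM in the cochlea and 159, 151 and 180 CPM in the vestibule. All cochlear libraries were above all vestibular ones, and the ratio of the nearest pair was 4.14. The log2 fold change was -2.51 (standard error 0.18, adjusted p = 2.45e-05), a 5.70-fold difference. Unlike Epyc, Lum was still at 151 CPM or more in every vestibular library.

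Omd, which encodes osteomodulin, a keratan sulphate proteoglycan of mineralised tissue, had the largest difference towards the vestibule. Its counts were the lowest of the members in every library except vestibule replicate 3, where Epyc had 404. The cochlear libraries held 30, 35 and 19 counts of Omd and the vestibular ones 194, 227 and 410, or 1.23, 1.22 and 0.65 CPM against 5.76, 8.84 and 16.1 CPM. Vestibule replicate 3 was 2.79 times vestibule replicate 1, the widest ratio of any member within a tissue. The log2 fold change was 3.21 (standard error 0.46, adjusted p = 0.00105), and it stayed between 2.68 and 3.53 over the 17 alternatives.

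Fmod, which encodes fibromodulin, a keratan sulphate proteoglycan that binds type I collagen and acts in tendon and cartilage, had 22.0, 19.1 and 23.7 CPM in the cochlea and 118, 124 and 112 CPM in the vestibule. The tissues were far apart and the libraries of a tissue close together. The log2 fold change was 2.33 (standard error 0.12, adjusted p = 5.93e-06), a 5.04-fold difference and the smallest standard error of the 9 genes.

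Aspn, which encodes asporin, a class I protein that carries a run of aspartate residues and no glycosaminoglycan chain, had 11.5, 9.86 and 8.83 CPM in the cochlea and 44.8, 39.1 and 42.8 CPM in the vestibule. Its log2 fold change was 1.95 (standard error 0.15, adjusted p = 4.02e-05), a 3.87-fold difference. Omd, Fmod and Aspn were the 3 genes of low or moderate level with the strongest shift to the vestibule.

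Ogn, which encodes osteoglycin, also called mimecan, had 213, 174 and 138 CPM in the cochlea and 339, 337 and 392 CPM in the vestibule. The log2 fold change was 0.91 (standard error 0.18, adjusted p = 0.00652). The nearest libraries of the tissues differed by a ratio of 1.58. Epyc and Ogn, the class III members, thus differed in opposite directions.

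Bgn, which encodes biglycan, a chondroitin and dermatan sulphate proteoglycan of bone and cartilage, had 321, 301 and 343 CPM in the cochlea and 485, 570 and 506 CPM in the vestibule. The log2 fold change was 0.58 (standard error 0.13, adjusted p = 0.0117). Prelp, which encodes a protein of the same family that anchors basement membranes to collagen, had 18.4, 17.2 and 21.7 CPM in the cochlea and 27.3, 34.4 and 34.4 CPM in the vestibule. Its log2 fold change was 0.63 (standard error 0.16, adjusted p = 0.0205). These were the smallest of the called differences. Bgn lost its call without cochlea replicate 2 (adjusted p = 0.0503) or vestibule replicate 2 (0.0728). Prelp lost its call without cochlea replicate 1 (adjusted p = 0.0730), cochlea replicate 2 (0.0794), vestibule replicate 2 (0.0878) or vestibule replicate 3 (0.0548). Without cochlea replicate 2 or vestibule replicate 2, 4 members were thus called in the vestibule.

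Dcn, which encodes decorin, the class I proteoglycan that binds type I collagen and transforming growth factor beta, did not pass the test. It had 464, 496 and 355 CPM in the cochlea and 628, 543 and 613 CPM in the vestibule, and its log2 fold change was 0.32 (standard error 0.17, adjusted p = 0.215). The CPM of the tissues did not overlap, but the nearest libraries differed by a ratio of only 1.10. Their TMM factors were 0.921 (cochlea replicate 2) and 1.0529 (vestibule replicate 2), and with TMM scaling they would change order. Over the 17 alternatives the log2 fold change stayed between 0.17 and 0.44 and was called in none.

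**Figure D2:**
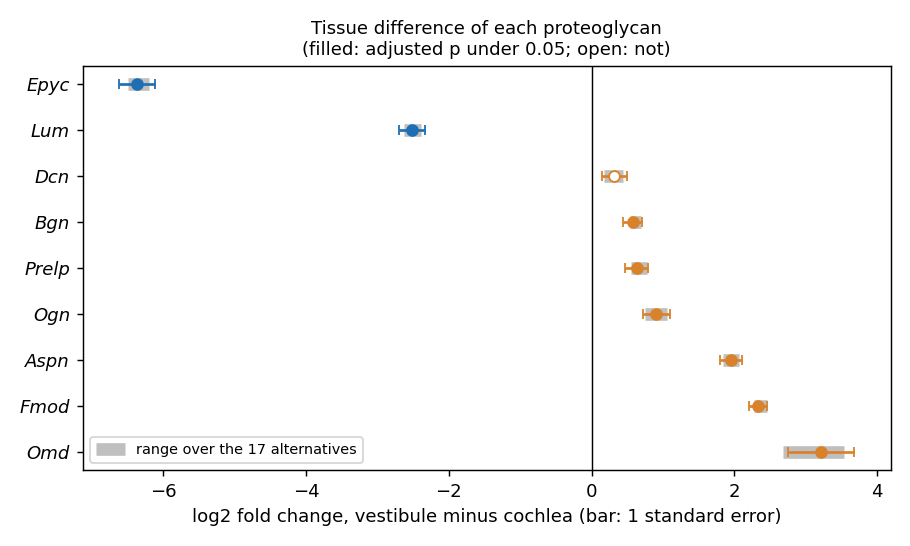
Log2 fold change (vestibule minus cochlea) of each proteoglycan gene with 1 standard error, over a grey band that spans the 17 alternative settings. Epyc at -6.36 and Lum at -2.51 lie on the cochlear side, Dcn is the open point, and no grey band crosses 0.

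Within the cochlea the members did not vary together. Cochlea replicate 3 was the lowest of its tissue for 6 members (Dcn, Aspn, Lum, Omd, Epyc and Ogn) and the highest for the other 3 (Bgn, Fmod and Prelp). In the cochlea the coefficient of variation was 6.53% for Bgn and between 10.9% and 21.6% for the other members apart from Omd, at 32.0%. In the vestibule it was 5.24% to 12.9% for 7 members, 20.5% for Epyc and 51.8% for Omd.

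Levels were compared between genes per length, with the deposited log2 RPKM (read counts scaled to gene length and library size). In the cochlea Epyc was first, with 582 ± 99.4 RPKM (SD, n = 3), and it ranked 85 of the 14722 genes in the matrix by mean log2 RPKM. Lum followed with 414 ± 53.2 RPKM and Dcn with 211 ± 35.4 RPKM. The 3 cochlear libraries of each of these genes did not overlap in log2 RPKM with those of the next gene in the order. Ogn (69.1 RPKM) and Bgn (52.9 RPKM) overlapped with each other, as did Fmod (6.55 RPKM) with Prelp (5.29 RPKM) and Prelp with Aspn (4.30 RPKM). Omd was last, with 0.67 ± 0.21 RPKM.

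In the vestibule the order was a different one. Dcn was first, with 286 ± 21.8 RPKM, and ranked 143, followed by Ogn with 140 ± 12.1 RPKM. Bgn (85.4 RPKM) and Lum (78.9 RPKM) overlapped, and Fmod (35.8 RPKM) and Aspn (18.1 RPKM) followed without overlap. Prelp (8.88 RPKM), Epyc (7.77 RPKM) and Omd (6.59 RPKM) came last, and each overlapped with the next. Epyc, first in the cochlea, was thus second to last in the vestibule, where it ranked 6858 among all genes in the matrix.

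As a share of the summed RPKM of the 9 genes, Epyc took 43.2% ± 1.39 in the cochlea and 1.17% ± 0.29 in the vestibule (SD, n = 3 each). Lum took 30.8% ± 0.80 and 11.8% ± 0.59, and Dcn took 15.6% ± 0.61 and 42.8% ± 2.30. Ogn took 5.13% ± 0.85 in the cochlea and 21.0% ± 1.04 in the vestibule, and Bgn 4.01% ± 0.86 and 12.8% ± 1.57. Because these are shares of a sum that Epyc and Lum raise in the cochlea, the share of Dcn differed although its own level was not called. In counts not scaled by length, the 9 genes together made up 0.287% to 0.372% of the gene counts of the cochlear libraries and 0.183% to 0.191% of those of the vestibular libraries.

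**Figure D3:**
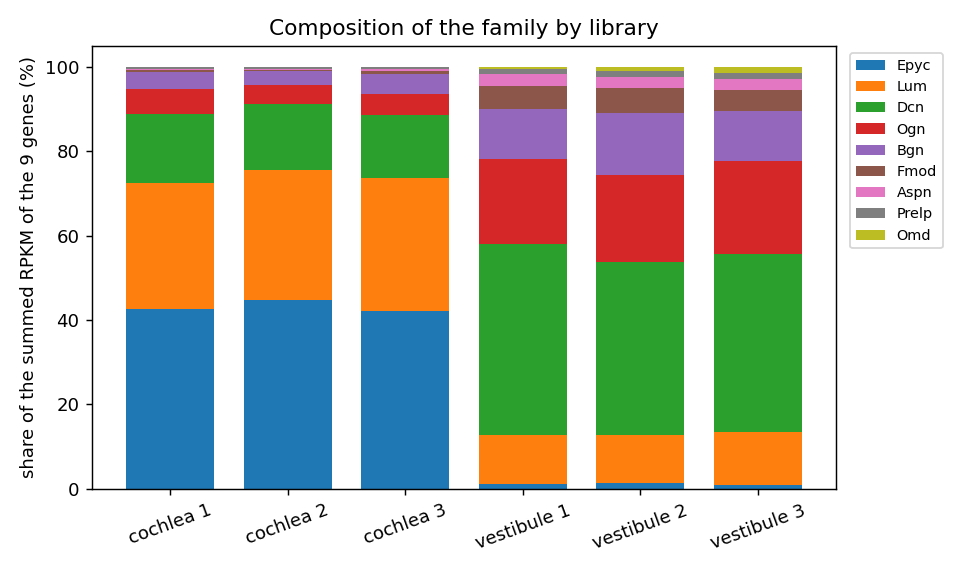
Share of each proteoglycan in the summed RPKM of the 9 genes, in percent, for each of the 6 libraries as stacked bars. Epyc and Lum fill most of the cochlear bars, and Dcn, Ogn and Bgn most of the vestibular ones, where Epyc is a thin strip at the base.

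On chromosome 10, both called genes of the cluster, Lum and Epyc, were higher in the cochlea, and their neighbour Dcn was not called. Dcn and Lum lie 47.0 kb apart, Lum and Kera 34.2 kb and Kera and Epyc 30.4 kb, with no other protein-coding gene in these gaps. From Dcn to Epyc the log2 fold changes were 0.32, -2.51 and -6.36 for the genes tested. Kera, which encodes keratocan, a class II proteoglycan of the cornea, was too low to be tested, with 14, 10 and 16 counts in cochlear libraries against 0, 6 and 1 in vestibular ones. The members on chromosome 13 all rose in the vestibule, with 1.95 for Aspn, 3.21 for Omd and 0.91 for Ogn. Their neighbour Ecm2, which encodes a related leucine-rich matrix protein, rose in the vestibule as well (0.93, standard error 0.22, adjusted p = 0.014), with 5.72, 3.65 and 5.06 CPM in the cochlea and 11.1, 8.18 and 10.4 CPM in the vestibule. On chromosome 1, Prelp and Fmod, 116 kb apart, both lay on the vestibular side, and Optc, which encodes opticin, had 10 to 35 counts in a library and was not tested.

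**Figure D4:**
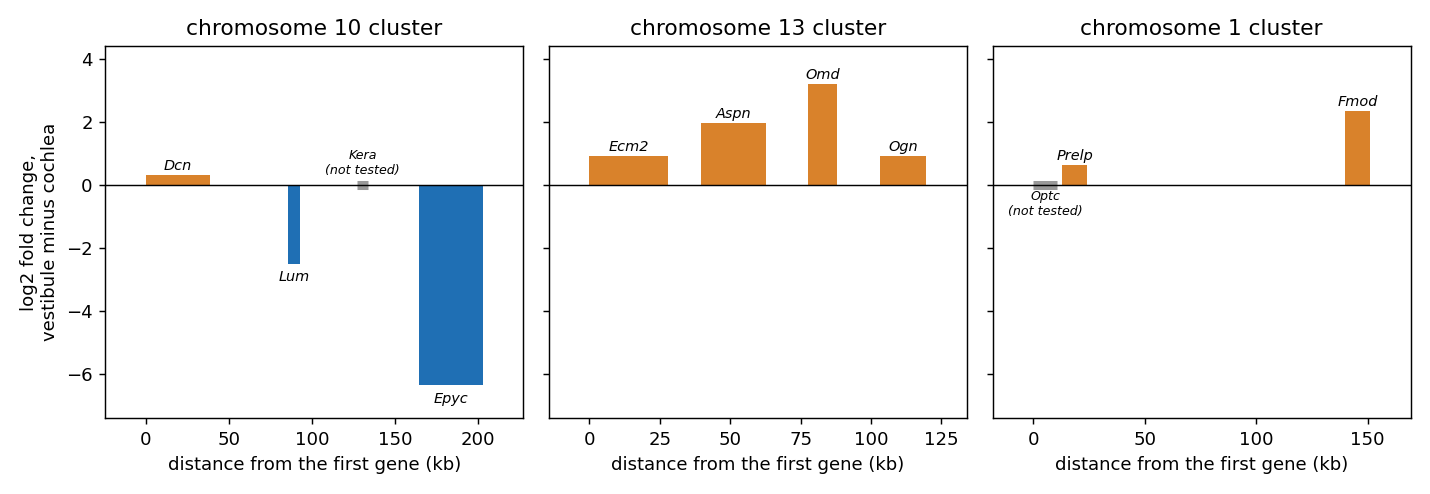
Log2 fold change (vestibule minus cochlea) of the genes of the 3 proteoglycan clusters against the distance in kb from the first gene of the cluster, each bar as wide as its gene. On chromosome 10 the bars of Lum (-2.51) and Epyc (-6.36) are below 0 and that of Dcn, which was not called, is at 0.32, and all tested genes on chromosomes 13 and 1 are above 0.

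Several members overlap a gene on the other strand. Aspn, Omd and Ogn lie within Cenpp, a kinetochore gene, which had 71 to 160 counts in a library. The antisense genes at Epyc (Gm10754) and Prelp (Gm15851) had 0 and at most 1 count in any library. Whether the counting used strand is not given in the sources used here.

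The rest of the family, 9 genes of the same and more distant classes, held 5 that were tested, of which 1 rose in each tissue. Beside this and the lists below stand 11.6% of all genes tested called in the cochlea and 15.8% in the vestibule. Podn, which encodes podocan, of class V, rose in the cochlea, with 17.05, 14.3 and 19.9 CPM there and 4.31, 2.69 and 1.73 CPM in the vestibule (log2 fold change -2.67, standard error 0.29, adjusted p = 0.000242). Ecm2 is the gene that rose in the vestibule, and it lost its call without cochlea replicate 2, while without vestibule replicate 1 there were 2 calls in the vestibule. Chadl, a chondroadherin-like protein that binds collagen, was as abundant in counts as several members, with 323 to 428 CPM in the cochlea and 448 to 513 CPM in the vestibule, and was not called (0.18, adjusted p = 0.445). Chad, which encodes chondroadherin, had 3.801 to 5.44 CPM and 5.85 to 12.8 CPM and was not called (0.90, adjusted p = 0.0717). Tsku, which encodes tsukushi, a secreted inhibitor of growth factors, had 24.1 to 27.9 CPM and 21.3 to 25.0 CPM and was not called (-0.25, adjusted p = 0.182). Kera, Optc, Nyx and Podnl1 were below the filter.

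Collagens with which the proteoglycans form or coat fibrils were compared as a list of 17 genes, all tested. Of these, 6 rose in the vestibule and 11 did not pass the test. The median log2 fold change was 0.25, against 0.0048 for all genes tested. Col14a1, a fibril-associated collagen, had the largest difference, with 94.6, 107 and 83.6 CPM in the cochlea and 1143, 918 and 801 CPM in the vestibule (3.20, standard error 0.18, adjusted p = 8.11e-06). Col12a1, also fibril-associated, differed by 1.59 and Col1a1, a chain of type I collagen, by 1.55 (adjusted p = 0.00292 and 0.000267). DESeq2 called 1 collagen in the cochlea, and without cochlea replicate 1 there were 2.

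Of 13 genes for procollagen processing and crosslinking, 12 were tested, 4 rose in the cochlea and 3 in the vestibule. The median log2 fold change was 0.0068, against 0.0048 for all genes tested, of which 11.6% rose in the cochlea and 15.8% in the vestibule. Pcolce2, an enhancer of procollagen cleavage, had 129, 109 and 138 CPM in the cochlea and 11.02, 8.37 and 10.0 CPM in the vestibule (-3.79, standard error 0.16, adjusted p = 3.47e-06). Tll1 and Tll2, proteases related to Bmp1, differed in opposite directions, at 2.78 and -1.93 (adjusted p = 0.000218 and 0.00363).

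Enzymes that build the glycosaminoglycan chains were a list of 30 genes, of which 29 were tested. In all 11 rose in the cochlea, 2 rose in the vestibule and 16 did not pass. The median log2 fold change was -0.21, against 0.0048 for all genes tested. Chst15, which sulphates chondroitin chains, had 338, 356 and 449 CPM in the cochlea and 63.0, 62.3 and 65.7 CPM in the vestibule (-2.70, standard error 0.15, adjusted p = 7.59e-06). Chst13, a chondroitin 4-sulphotransferase, was low, with 62, 72 and 90 counts in cochlear libraries against 5, 7 and 4 in vestibular ones (-3.92, adjusted p = 4.98e-05). Chst5, a sulphotransferase of the group that acts on keratan sulphate, went the other way, with 4.58, 2.60 and 3.798 CPM in the cochlea and 70.0, 74.02 and 79.9 CPM in the vestibule (4.24, standard error 0.21, adjusted p = 5.56e-06). Without vestibule replicate 2, 7 of the enzymes were called in the cochlea, and without cochlea replicate 2, 1 was called in the vestibule.

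A list of 20 growth factors, receptors and other secreted proteins was compared, several of them reported to bind members of the family. It includes latent transforming growth factor beta binding proteins. All were tested, and 4 rose in the cochlea, 8 rose in the vestibule and 8 did not pass the test. The median log2 fold change was 0.27, against 0.0048 for all genes tested. Tgfb2 had 739, 738 and 902 CPM in the cochlea and 201, 236 and 245 CPM in the vestibule (-1.91, standard error 0.16, adjusted p = 6.07e-05). Bmp2, another ligand of the same superfamily, had 5.35, 5.10 and 4.86 CPM in the cochlea and 32.0, 28.2 and 21.2 CPM in the vestibule (2.28, adjusted p = 3.39e-05). Ccn4, a secreted protein that binds decorin and biglycan, rose in the cochlea (-1.58, adjusted p = 0.000156).

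**Figure D5:**
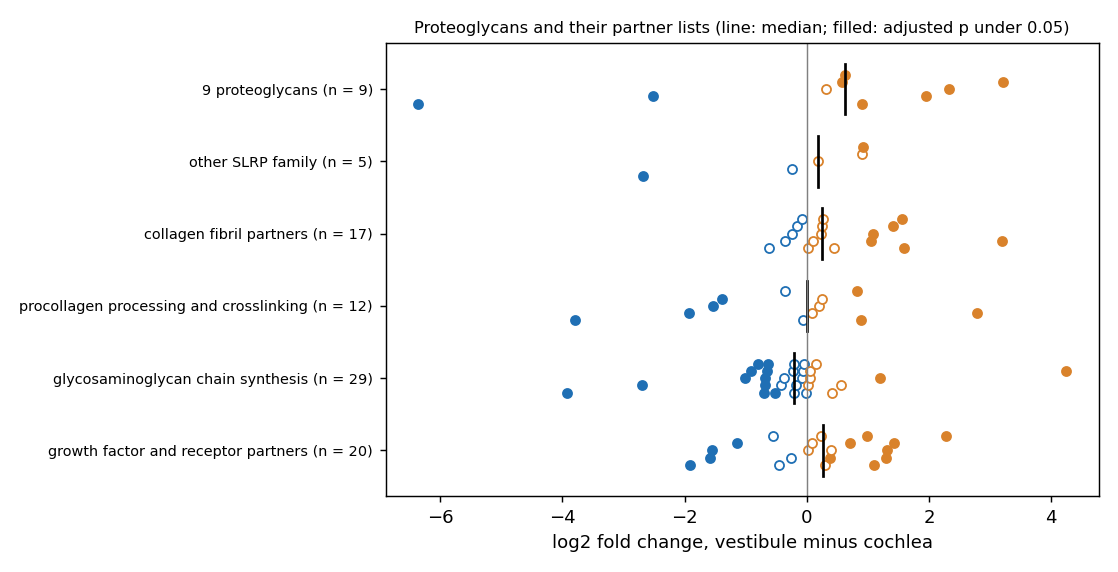
Log2 fold change (vestibule minus cochlea) of each tested gene of the 9 proteoglycans and of the 5 lists around them, filled where the adjusted p was under 0.05, with the median of each list as a line. The collagens called lie on the vestibular side, most of the chain-building enzymes called lie on the cochlear side, and the other lists have calls on both.

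Markers of several, but not all, of the other cell types that the dissected tissue could hold differed between the tissues. Of 14 markers of mesenchyme and fibroblasts, led by Col1a2 and Col3a1, 1 rose in the cochlea and 5 in the vestibule, and they summed to 4137 to 4958 CPM in the cochlea and to 7722 to 8879 CPM in the vestibule. This list shares 3 collagens with the list of fibril partners. Of 14 markers of cartilage and bone, led by Cnmd and Matn1, 1 rose in the cochlea (Matn1) and 9 in the vestibule, although their sum was 833 to 953 CPM in the cochlea and 685 to 811 CPM in the vestibule. All 6 macrophage markers (led by Csf1r and C1qb, 85.2 to 101 CPM against 319 to 352 CPM) and all 5 melanocyte markers (Dct and Pmel, 31.0 to 60.0 CPM against 272 to 336 CPM) rose in the vestibule. Of 6 endothelial markers, 1 rose in the cochlea and 4 in the vestibule, and they summed to 178 to 237 CPM in the cochlea and to 391 to 546 CPM in the vestibule. The most abundant of them differed in opposite directions, with a log2 fold change of 3.60 for Kdr (adjusted p = 5.56e-06) and of -1.80 for Emcn (adjusted p = 3.72e-05).

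On the cochlear side, 8 of the 10 markers of the cochlear floor epithelium, led by the tectorial membrane genes Tecta and Tectb, rose in the cochlea. Of the markers of otoconial and nonsensory vestibular epithelium, led by Oc90 and Otol1, all 3 tested rose in the vestibule, and the list summed to 1285 to 1768 CPM in the cochlea and 8452 to 9709 CPM in the vestibule. Of the hair cell markers, led by Myo6 and Otof, 1 rose in the cochlea and 5 in the vestibule. Among 7 neuronal markers tested, led by Nefm and Tubb3, 3 rose in the cochlea, including Tubb3 (-2.54, adjusted p = 0.0222). The sums overlapped between cochlea and vestibule for the neuronal markers (160 to 517 CPM and 105 to 327 CPM) and for red blood cell markers, led by Hbb-bs and Hba-a1 (292 to 736 CPM and 475 to 637 CPM). Of 5 skeletal muscle markers tested, led by Acta1 and Des, 1 rose in the cochlea (Des, -1.49, adjusted p = 0.0096). No marker of any of these lists was at 0 in all libraries, but the otoconial markers below the filter had at most 1 count in any library. The part of these cell types in the differences of the 9 genes was not tested.

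The genes whose pattern over the 6 libraries was most like that of each member were found by the root mean square difference of log2 CPM, each gene centred on its own mean. Bgn and Prelp were the closest pair of members, at 0.10 on this scale, followed by Aspn and Fmod (0.27) and by Dcn and Bgn (0.27). The member closest to Epyc was Lum, at 1.94, and Lum was closer to Dcn (1.42) than to Epyc. Where tissues differ widely, this distance mostly restates the log2 fold changes, which had opposite signs for Lum (-2.51) and Dcn (0.32). Among all 14723 genes tested, Crabp1 (0.18) was nearest to Epyc, where the median gene was at 3.20. The next by the measure was Prss3, but it was at 0 in all 3 vestibular libraries, so its distance depends on the prior count and is not given. Crabp1 had 103, 175 and 96.0 CPM in the cochlea and 1.40, 1.95 and 1.33 CPM in the vestibule, highest in cochlea replicate 2 and in vestibule replicate 2, as Epyc was.

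For Lum the nearest genes were Moxd1 (0.11) and P4ha2 (0.12), for Omd they were Mmp9 (0.16) and Cldn10 (0.25), and for Fmod they were Maats1 (0.058) and Cspg5 (0.082). Aspn was nearest to Ctsh (0.10) and Itgb2 (0.11), Ogn to Cnp (0.069) and Pmepa1 (0.081), and Prelp to Tmem135 (0.039) and Txnip (0.053). Bgn was nearest to Thap3 (0.016) and Reps2 (0.048), and Dcn to Acer3 (0.042) and Agfg2 (0.058). Small distances are common for genes with small differences such as Bgn and Dcn, for which the median gene lay at 0.41 and 0.38.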

How the data were processed

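RNA-seq of cochlear and vestibular sensory epithelium was used, grouped by the titles in the labels. The authors aligned the 100 bp paired-end reads with TopHat2 2.1.0 to GRCm38 and deposited whole read counts per Ensembl gene from HTSeq 0.5.4p5, without normalization. They also deposited log2 RPKM, made with edgeR 3.4.2, for the genes past their filter (tool versions per the labels). Summary lines of the count files, 18.5% to 20.6% of all listed counts, stayed out of library sizes and tests. The strand setting of the counting is not given in the sources used here.

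The filter kept genes that reached 1 CPM in 3 libraries. TMM scaling and the quasi-likelihood test of edgeR 4.0.16 (R 4.3.3) followed, without a block, and p-values were adjusted over the whole table by the Benjamini-Hochberg method (threshold 0.05). The standard error is the absolute log2 fold change divided by the square root of the F statistic. On simulated counts of 14723 genes the test called 63 of 100 genes changed by 2-fold and 99 of 100 changed by 4-fold, with 13 false calls. CPM uses the gene counts of a library alone, and likeness used a prior count of 0.5. Alternatives covered scaling, filters, DESeq2 1.42.0, limma-voom (limma 3.58.1), the likelihood ratio test, a second threshold, a replicate block and leaving out each library.

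The 9 genes and all lists were chosen with earlier results of these data known. Named were all members, all other family genes, the 3 called genes with the largest change of each partner list and the 2 most abundant of each marker list (1 marker list is not reported here), with the 2 genes most like each member. Python 3.11.15 with matplotlib 3.10.9 made the figures. The count files use an older Ensembl gene set than GENCODE vM21, from which positions were taken by gene identifier.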

Additional observations from a re-analysis of the deposited data

How the results depend on the processing

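Of 153 values of the 9 genes (each under 17 alternatives), 145 kept their side of the threshold and 8 lost their call, all for Bgn or Prelp, and none changed direction. Nothing in the labels pairs libraries of the same number beyond that number, and their deviations from the tissue means had correlations of -0.18, -0.26 and -0.47. With the replicate block, Bgn (0.57, adjusted p = 0.0746) and Prelp (0.62, adjusted p = 0.0550) were not called, so 4 members were called in the vestibule, and over all genes tested 1609 were called in the vestibule against 2325 without it and 1009 in the cochlea against 1711. The vestibular calls of the rest of the family numbered 2 with library sizes alone, with no filter, with DESeq2, with the likelihood ratio test and with an FDR of 0.1 and a fold change of 1.3, and its cochlear calls numbered 2 with no filter. Collagens called in the cochlea numbered 1 with no filter, DESeq2, the likelihood ratio test and the second threshold, and chain-building enzymes called in the vestibule numbered 1 with a filter of 5 CPM. Leaving out each library in turn gave 925 to 1863 genes called in the cochlea and 1342 to 2694 in the vestibule. It gave 0 to 2 collagens called in the cochlea, 7 to 10 chain-building enzymes in the cochlea and 1 to 2 in the vestibule, and 0 to 2 other family genes in the vestibule. Runs without a library rest on fewer samples, and the cause of these changes, some of them upward, was not tested. With library sizes alone, 68.8% of the calls were in the vestibule, against 57.6% with TMM scaling, and the median over all genes tested moved to 0.125 (log2). Depth limits Omd most, at 19 to 35 counts in the cochlea.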
